A study of Mus musculus with 4 samples.

Results

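The fragments considered here are those that fell in annotated enhancers, in DNase-sensitive regions and in the on-target union of region classes, counted per nucleus in entorhinal cortex of wild-type (WT) C57Bl6 mice at postnatal day 56. Single-cell ATAC sequencing uses the transposase Tn5 to cut and tag open chromatin, with a barcode for each droplet. Of 7 fragment counts by region class in the deposited tables, 3 are the subject, read in 3951 of 4086 barcodes that the authors had called as cells. These are the called barcodes with at least 5000 usable fragments, that is, unique fragments that passed the authors' filters. They are named nuclei below. The groups were medial entorhinal cortex (MEC; 1019 and 936 nuclei in replicates 1 and 2) and lateral entorhinal cortex (LEC; 1040 and 956 nuclei). Both regions were microdissected from both hemispheres and flash frozen, and the study used 2 mice in all. Nothing in the labels says that the 2 libraries of a region came from separate mice, and their spread may therefore be only technical. All groups shared strain, genotype, age and treatment.

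An enhancer is a stretch of DNA, often far from the gene it acts on, that raises transcription when transcription factors bind it. DNase-sensitive regions are stretches that the nuclease DNase I cuts readily because nucleosomes there are displaced; they include active promoters, enhancers and insulators, and many are used in only some cell types. In cortex, neurons and glia differ widely in which distal elements are open, while promoters are open in most cell types. The class annotations overlap, so that 1 fragment can be an enhancer, a DNase-sensitive and a promoter fragment at once.

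The on-target count behaved as the union of transcription start site (TSS), promoter, enhancer and DNase-sensitive fragments. In 1389566 barcodes it was never below any of these 4 counts, never above their sum and never above the usable fragments. Peaks are not part of it, since the peak count exceeded the on-target count in 29204 barcodes. Taken as that union, the count makes subtraction exact. The checks on the 4 counts could also hold under other definitions, so the divisions and floors below rest on this reading. Usable minus on-target fragments lay outside every target, and on-target minus DNase-sensitive fragments lay in a TSS window, promoter or enhancer but in no DNase-sensitive region. The tables hold no coordinates, genes or sequences of single regions, so no locus, marker gene or cell type can be named.

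MEC nuclei had been sequenced more deeply than LEC nuclei. The median was 60583 and 63206 usable fragments in MEC replicates 1 and 2, against 45780 and 46146.5 in LEC. Of duplicate pairs and usable fragments together, 28.4% ± 0.297 were duplicates in MEC against 20.6% ± 0.580 in LEC (SD, n = 2 libraries for this and all following group values). Depth of sequencing and region cannot be told apart in these 4 libraries. The nuclei held between 45475991 and 60244806 usable fragments per library. Over all nuclei of a library, Wilson intervals (95%) were computed for the off-target share and the enhancer and DNase-sensitive shares of on-target fragments. The widest reached 0.0208 percentage points to each side, which covers counting error only. Among nuclei of 5000 to 10000 fragments the off-target interval reached 0.253 percentage points to each side, in MEC replicate 2. Over the 6 pairs of libraries, 7 barcodes were shared.

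About as many fragments lay outside all targets as inside. The off-target share was 49.0% and 48.8% of usable fragments in MEC replicates 1 and 2, and 51.7% and 51.7% in the LEC replicates. Each MEC library was below each LEC library. The means were 48.9% ± 0.158 and 51.7% ± 0.0287, a difference of -2.78 percentage points that was larger than the spread between libraries of 1 region (two-sided exact permutation test over libraries, p = 0.333). With 2 libraries against 2, that is the smallest p the test can give, so no comparison between regions could pass 0.05. Benjamini-Hochberg adjustment over the 8 main quantities left it at 0.333 for each, and in 8 of 8 the libraries of the regions did not overlap. The 8 are computed from the same 6 counts and are not independent.

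Fewer fragments lay in enhancers than in DNase-sensitive regions, and more so in MEC. The enhancer to DNase ratio was 0.642 and 0.643 in MEC and, in LEC, 0.663 and 0.664. Every LEC library lay above every MEC library. The means were 0.643 ± 0.0004998 in MEC and 0.664 ± 0.000513 in LEC, with a difference of -0.0211 (exact permutation p = 0.333). Enhancer fragments also made up a smaller part of the on-target union in MEC, at 45.7% in each MEC library against 46.3% and 46.2% in the LEC libraries. DNase-sensitive fragments made up a larger part, at 71.1% ± 0.00726 against 69.7% ± 0.129. The difference at DNase-sensitive regions, 1.43 percentage points, was larger in size than that at enhancers, -0.547. Of usable fragments, by contrast, enhancer fragments were a larger share in MEC, at 23.3% ± 0.0927 against 22.3% ± 0.0109 in LEC. The share of usable fragments was examined after the values had been seen.

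On-target fragments carried more class memberships each in MEC than in LEC. The class overlap, the sum of TSS, promoter, enhancer and DNase-sensitive fragments over on-target fragments, was 1.80 and 1.80 in MEC replicates 1 and 2, against 1.75 and 1.75 in LEC. Each MEC library exceeded each LEC library, with means of 1.796 ± 0.00118 and 1.752 ± 0.00167 and a difference of 0.0442 (exact permutation p = 0.333). As no fragment can be in more than 4 classes, at least 26.5% ± 0.0393 of on-target fragments in MEC and 25.1% ± 0.0558 in LEC were in several classes. The difference in overlap is the sum of 4 parts. Promoters, the stretches where transcription machinery assembles, contributed 2.23 percentage points of on-target fragments, with 25.9% ± 0.0628 for MEC against 23.6% ± 0.166 for LEC. DNase-sensitive regions contributed 1.43 and TSS windows 1.31, with TSS at 37.0% ± 0.00758 against 35.6% ± 0.181. The enhancer part went the other way, at -0.547.

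A floor can be set on how many enhancer fragments also lay in DNase-sensitive regions. On-target fragments outside DNase-sensitive regions cap the enhancer fragments that can be there, and the rest must lie in both. At least 36.7% and 36.8% of enhancer fragments in the MEC libraries were also in a DNase-sensitive region, and at least 34.7% and 34.2% in the LEC libraries. The floor averaged 36.8% ± 0.0715 for MEC and 34.4% ± 0.350 for LEC (exact permutation p = 0.333). Seen from the other side, at least 23.6% ± 0.0644 of DNase-sensitive fragments in MEC and 22.8% ± 0.215 in LEC were enhancer fragments. For TSS fragments the floor was 21.8% ± 0.0357 in MEC and 14.9% ± 0.0686 in LEC. These are lowest possible values and the true overlap may be far higher. A difference between floors is therefore not a measured difference in overlap.

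Usable fragments divide exactly into those in DNase-sensitive regions, those on target outside DNase-sensitive regions, and those off target, and the middle part was nearly the same in all 4 libraries. It was 14.7% and 14.8% of usable fragments in MEC and, in LEC, 14.6% and 14.7%. The groups did not overlap, but the difference of 0.110 percentage points was small beside those of the other parts. DNase-sensitive fragments averaged 36.3% ± 0.116 of usable fragments for MEC against 33.6% ± 0.0424 for LEC. The difference, 2.67 percentage points, was nearly the size of the off-target difference with the opposite sign. By contrast, on-target fragments outside enhancers were 27.7% ± 0.0652 in MEC and 26.0% ± 0.0396 in LEC. On-target fragments outside TSS windows were 32.2% ± 0.0957 and 31.1% ± 0.0687. This division was examined after the values had been seen.

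**Figure D1:**
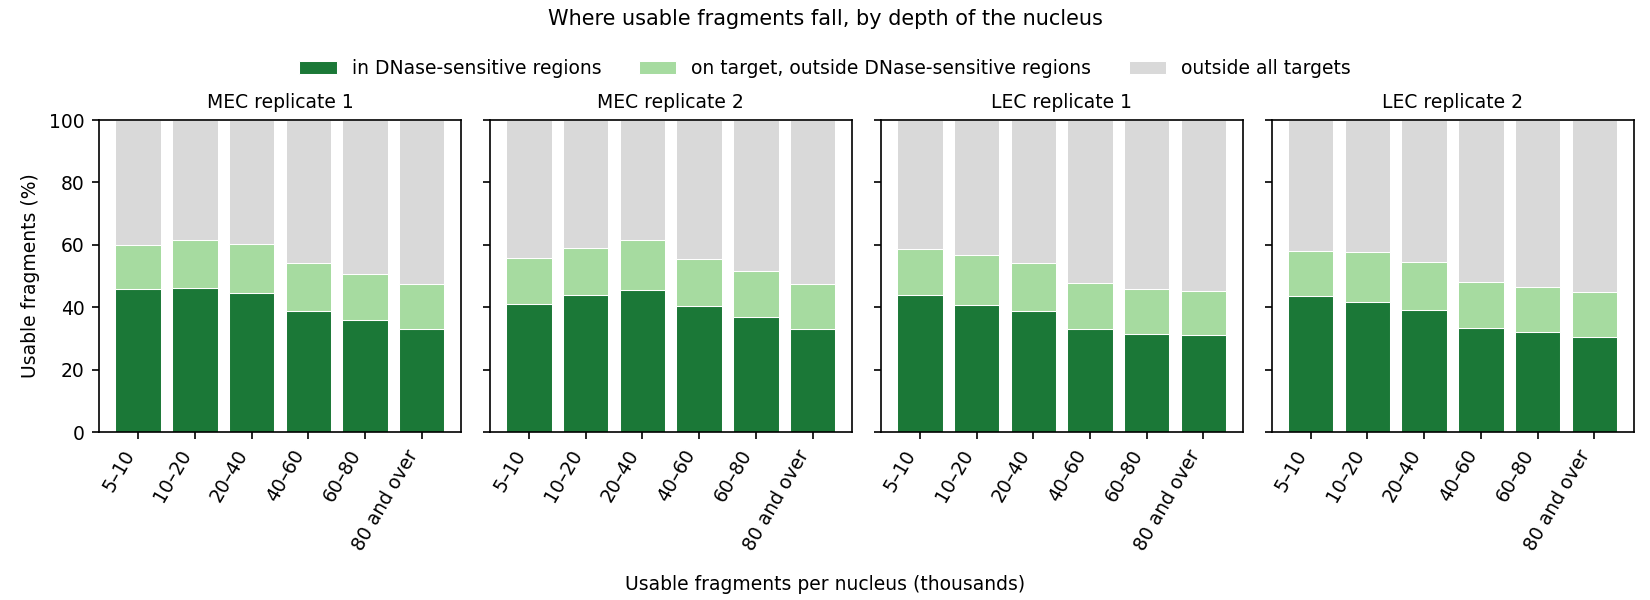
Stacked bars give the percent of usable fragments (y axis) in DNase-sensitive regions, on target outside them, and outside all targets, for nuclei in 6 classes of usable fragments (x axis, in 1000 fragments) in each library. The middle part stays between 14.2% and 16.0% in every bar, while the DNase-sensitive part is smallest in the deepest nuclei.

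The off-target share was higher in deeper nuclei. In nuclei of 5000 to 10000 fragments it was 39.9% and 44.3% in MEC replicates 1 and 2, against 41.4% and 42.1% in LEC. In nuclei of 80000 fragments or more it was 52.7% and 52.6% in MEC and 54.8% and 55.2% in LEC. From class to class it was higher in 5 of 5 steps in both LEC libraries, but in 4 and 3 of 5 steps in MEC, where the lowest values, 38.4% and 38.5%, were at 10000 to 20000 fragments in replicate 1 and at 20000 to 40000 in replicate 2. The deep nuclei lay above the shallow ones in 4 of 4 libraries, by 11.9 ± 2.37 percentage points (SD, n = 4 libraries). The two-sided exact sign-flip permutation test over libraries gave p = 0.125, the smallest that 4 libraries allow, and adjustment over the 3 depth contrasts left it at 0.125. The depth contrast averaged 10.6 ± 3.13 percentage points for MEC and 13.2 ± 0.231 for LEC, and these differed by -2.64 (exact permutation p = 0.333). The wide spread in MEC came with 26 and 20 nuclei in the shallow class, where MEC replicate 2 lay above the other 3 libraries.

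The enhancer to DNase ratio went with depth in every step. In all 4 libraries it was higher in each class than in the class below it, in 5 of 5 steps. It went from 0.563 and 0.576 in MEC and 0.569 and 0.557 in LEC in the shallowest class to 0.668 and 0.670 in MEC and 0.691 and 0.693 in LEC in the deepest. The contrast was 0.114 ± 0.0183 over the 4 libraries (exact sign-flip permutation p = 0.125, adjusted 0.125), with 0.0995 ± 0.00685 in MEC and 0.129 ± 0.00919 in LEC. Both shares of usable fragments were smaller in deep nuclei than in shallow ones, in 4 of 4 libraries. For enhancer fragments the contrast was -3.75 and -1.59 percentage points in MEC and -3.48 and -3.15 in LEC. DNase-sensitive fragments had contrasts of -12.7 and -8.18 in MEC and -12.8 and -13.1 in LEC. A higher ratio in the deepest than in the shallowest class thus went with smaller shares of both kinds of fragment. From class to class this did not hold throughout. The enhancer share rose in 2 of 5 steps in both MEC libraries and in 0 and 1 in LEC replicates 1 and 2. The DNase-sensitive share rose in 1 and 2 steps in MEC replicates 1 and 2 and in 0 in both LEC libraries.

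On-target fragments outside DNase-sensitive regions differed little between the shallowest and the deepest class of nuclei. Their share in the deepest class differed from that in the shallowest by -0.0248 and -0.160 percentage points in MEC and by -0.565 and 0.0504 in LEC. It was lower in 3 libraries and higher in 1 (exact sign-flip permutation p = 0.375). Over all 6 classes and 4 libraries this share stayed between 14.2% and 16.0%, with its highest class values, 15.8% and 16.0%, at 20000 to 40000 fragments in MEC and at 10000 to 20000 in LEC (16.0% in both libraries). Across single nuclei the share was lower at greater depth in every library. Spearman's rho with usable fragments was -0.398 and -0.324 in MEC and -0.404 and -0.344 in LEC.

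Class overlap was lower in deep nuclei, by a contrast of -0.252 ± 0.0466 over the 4 libraries (exact sign-flip permutation p = 0.125, adjusted 0.125). It was 1.96 and 1.92 in shallow MEC nuclei and 1.97 and 1.97 in shallow LEC nuclei. In the deepest class it was 1.73 and 1.73 in MEC and 1.68 and 1.68 in LEC. Fragments of deep nuclei thus carried fewer class memberships each. The contrast was -0.214 ± 0.0283 in MEC and -0.290 ± 0.00313 in LEC. From class to class the overlap was lower in 5 of 5 steps in both LEC libraries, but in 4 and 3 of 5 in MEC. The highest MEC class values were 1.968 at 10000 to 20000 fragments in replicate 1 and 1.950 at 20000 to 40000 in replicate 2.

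In the depth classes from 20000 to 80000 fragments the regions lay further apart than over all nuclei, in all 3 measures. Between 40000 and 60000 fragments the off-target share averaged 45.2% ± 1.11 for MEC against 52.1% ± 0.328 for LEC, and the difference was -6.95 percentage points. The enhancer to DNase ratio there was 0.623 ± 0.00208 against 0.667 ± 0.00152, a difference of -0.0446, and the class overlap 1.85 ± 0.0137 against 1.74 ± 0.00662. In the deepest class the differences were -2.33 percentage points for the off-target share and -0.0230 for the ratio. Of 18 comparisons within depth classes, the libraries of the regions did not overlap in 16 (exact permutation adjusted p = 0.375 for each of these).

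In nuclei of 5000 to 10000 fragments, which numbered 26, 20, 50 and 43, the off-target share and the ratio overlapped between regions. The off-target difference there was 0.317 percentage points, and it became -1.85 without MEC replicate 2 and -0.0188 without LEC replicate 1. Class overlap in these nuclei was lower in MEC (1.94 ± 0.0287) than in LEC (1.97 ± 0.00215), the opposite order to all other depth classes. This difference of -0.0253 ranged from -0.0456 without MEC replicate 1 to -0.00501 without MEC replicate 2. At 40000 to 60000 fragments, duplicates made up 30.3% ± 0.902 of duplicate pairs and usable fragments together in MEC and 20.1% ± 1.06 in LEC. Nuclei of equal usable fragments had thus not been sequenced equally.

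Weighting nuclei to 1 distribution of usable fragments or of estimated complexity changed the size of the region differences but not their direction. With depth classes weighted to 1 distribution the off-target difference was -4.52 percentage points, that in the ratio -0.0335 and that in class overlap 0.0772. Weighting to 1 distribution of estimated complexity, the number of distinct fragments inferred from the duplicates, gave -2.40, -0.0185 and 0.0377. These values were closer to the unweighted -2.78, -0.0211 and 0.0442. Nuclei of equal complexity can still have been sequenced to different depth, so the complexity weighting did not equalise sequencing.

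**Figure D2:**
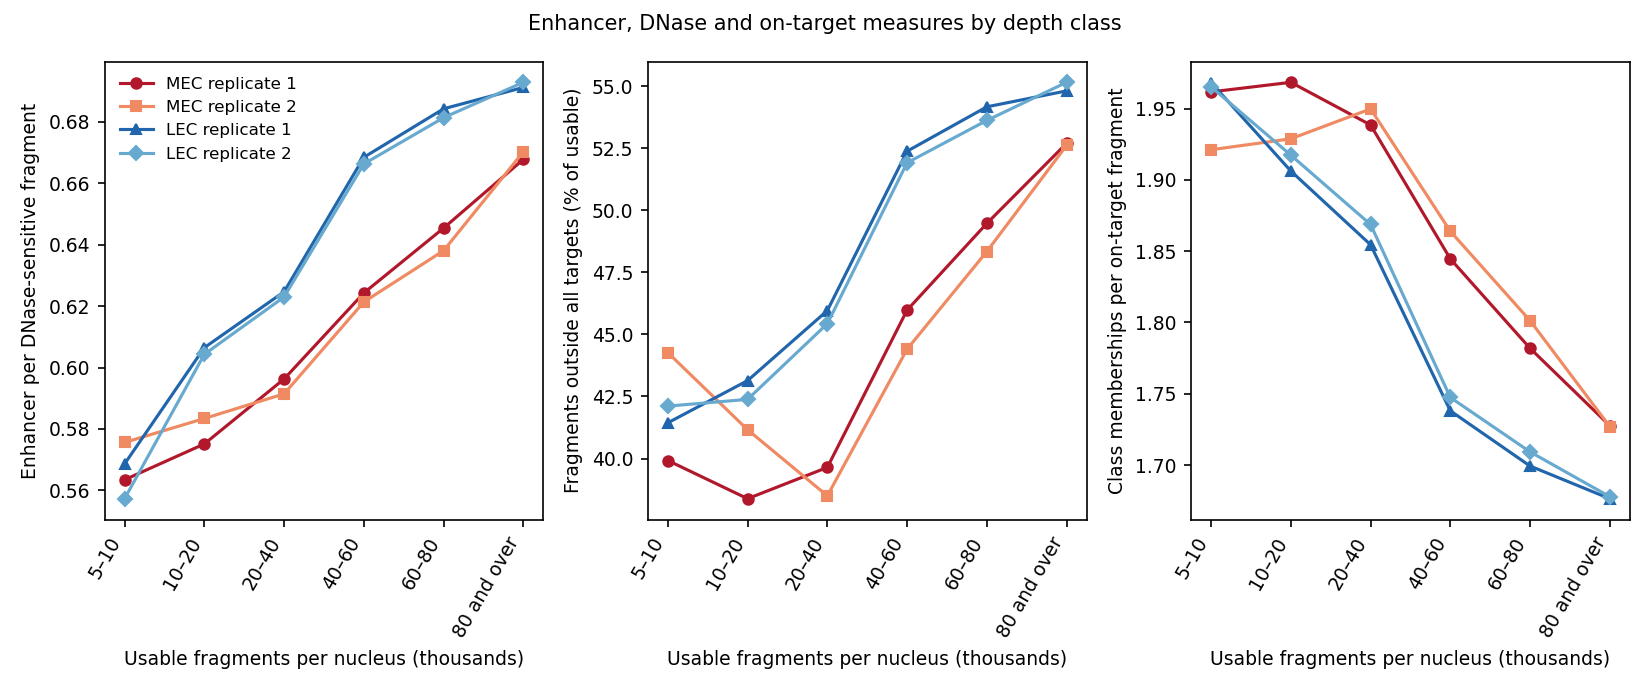
Enhancer fragments per DNase-sensitive fragment, off-target share (percent of usable fragments) and class memberships per on-target fragment (y axes, none starting at 0) in 6 classes of usable fragments per nucleus (x axis, in 1000 fragments), with 1 line per library. The MEC lines lie apart from the LEC lines above 10000 fragments in all 3 panels, and the ratio climbs in every step, to 0.668 and 0.670 in MEC and 0.691 and 0.693 in LEC.

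Nuclei of 1 library differed among themselves far beyond counting error. The off-target share of single nuclei ran from 17.3% to 62.0% in MEC replicate 1, from 16.4% to 61.4% in MEC replicate 2, from 18.3% to 62.3% in LEC replicate 1 and from 19.5% to 62.3% in LEC replicate 2. The medians were 48.3%, 48.2%, 51.1% and 51.2%. The SD over nuclei was 8.24 and 8.41 percentage points in MEC and 7.63 and 7.59 in LEC, where counting alone would give between 0.238 and 0.286. The range from the 10th to the 90th percentile was wider in MEC, at 21.9 ± 0.840 percentage points against 19.7 ± 0.604 (exact permutation p = 0.333).

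The enhancer to DNase ratio varied less in relation to counting error. Its median per nucleus was 0.639 and 0.639 in MEC and 0.659 and 0.663 in LEC, with extremes of 0.432 and 0.772 over all libraries. Its SD was between 5.09 and 6.03 times the counting SD, itself an upper value because it treats enhancer and DNase-sensitive counts as independent. The range from the 10th to the 90th percentile was 0.124 ± 0.00235 for MEC against 0.129 ± 0.00171 for LEC (exact permutation p = 0.333). The difference of -0.00493 was small beside the range itself, and it was -0.00659 without MEC replicate 1 and -0.00328 without MEC replicate 2.

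**Figure D3:**
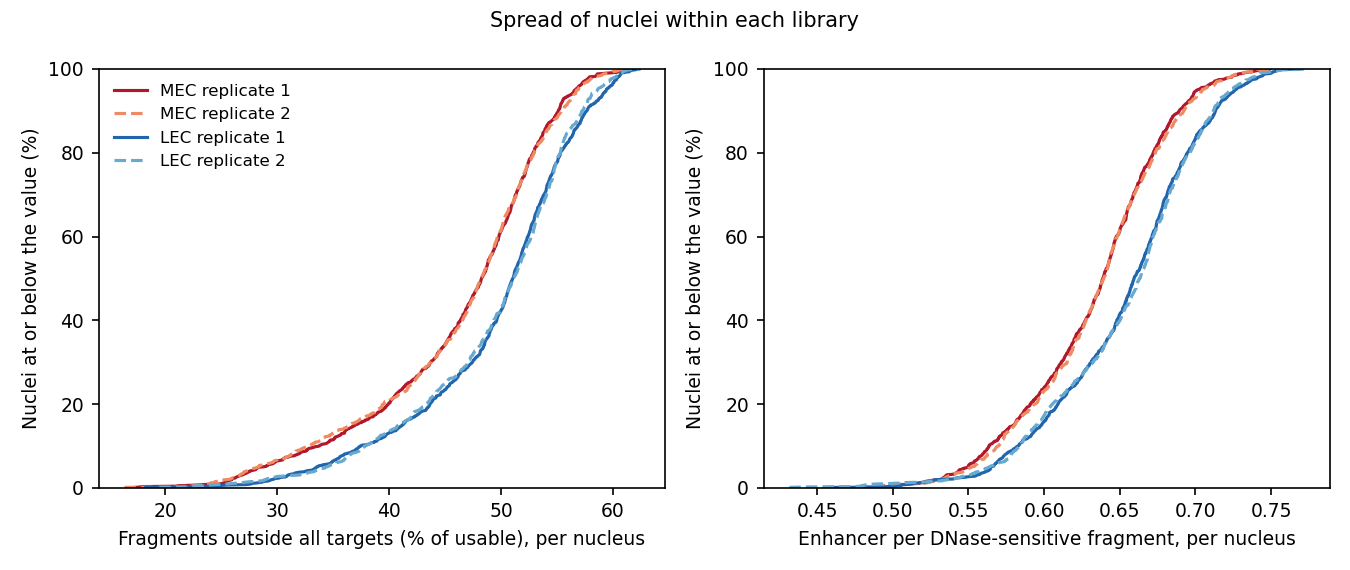
Cumulative percent of nuclei (y axis) by off-target share (left x axis, percent of usable fragments) and by enhancer fragments per DNase-sensitive fragment (right x axis), with 1 line per library. The 2 libraries of a region nearly coincide. The MEC lines lie to the left of the LEC lines at the 10th percentile, the median and the 90th percentile in both panels. Medians are 48.3% and 48.2% off target in MEC against 51.1% and 51.2% in LEC. At the 10th percentile the off-target shares are 33.8% and 32.9% against 37.5% and 37.9%. The curves draw together at the ends.

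Nuclei with a high off-target share also had a high enhancer to DNase ratio. Across the nuclei of a library Spearman's rho was 0.893 and 0.895 in MEC (1019 and 936 nuclei) and 0.877 and 0.871 in LEC (1040 and 956 nuclei). Class overlap went the other way, with rho of -0.959, -0.954, -0.922 and -0.925. The DNase-sensitive share of usable fragments had rho of -0.987, -0.988, -0.987 and -0.986 with the off-target share. On-target fragments outside DNase-sensitive regions followed it more loosely, at -0.394, -0.412, -0.396 and -0.370. Nuclei of a library share its preparation and depth, and these measures share counts, so the coefficients are descriptions. Parts of 1 total are bound to oppose each other.

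The regions differed in how their nuclei were spread over the off-target range. Nuclei with under 35% of fragments off target made up 11.4% and 13.0% in MEC and, in LEC, 6.35% and 5.54%. At 55% or more they made up 10.5% and 11.8% in MEC and 22.3% and 21.8% in LEC. The groups did not overlap at either end. Nuclei under 35% had medians of 28036 and 31052.5 usable fragments in MEC and 18883 and 19780 in LEC, each below the median of its library. Nuclei at 55% or more had medians of 92231 and 89504 in MEC and 63623 and 66560.5 in LEC.

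Among nuclei of like off-target share the regions lay closer together. In nuclei under 35% off target the enhancer to DNase ratio was 0.562 and 0.568 in MEC and 0.565 and 0.561 in LEC, and the groups overlapped. They also overlapped from 35% to 40% and from 40% to 45%. From 50% to 55% the ratio was 0.666 and 0.667 in MEC and 0.672 and 0.675 in LEC, and at 55% or more 0.699 and 0.702 against 0.710 and 0.708. In these classes and in that from 45% to 50% each LEC library exceeded each MEC library. With the off-target classes weighted to 1 distribution the ratio was 0.650 ± 0.000399 in MEC and 0.657 ± 0.000845 in LEC. The difference of -0.00679 compares with -0.0211 unweighted, and that in class overlap was 0.00970 against 0.0442. In both weighted values the libraries of the regions did not overlap (exact permutation p = 0.333). Within single classes the order of class overlap was not uniform. It was lower in MEC from 35% to 40% (1.958 and 1.950 against 1.962 and 1.963) and from 40% to 45% (1.881 and 1.878 against 1.891 and 1.895), overlapped between the regions under 35%, and was higher in MEC from 45% up. These classes were formed after the data had been seen, and the off-target share and the ratio both draw on fragments in DNase-sensitive regions.

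**Figure D4:**
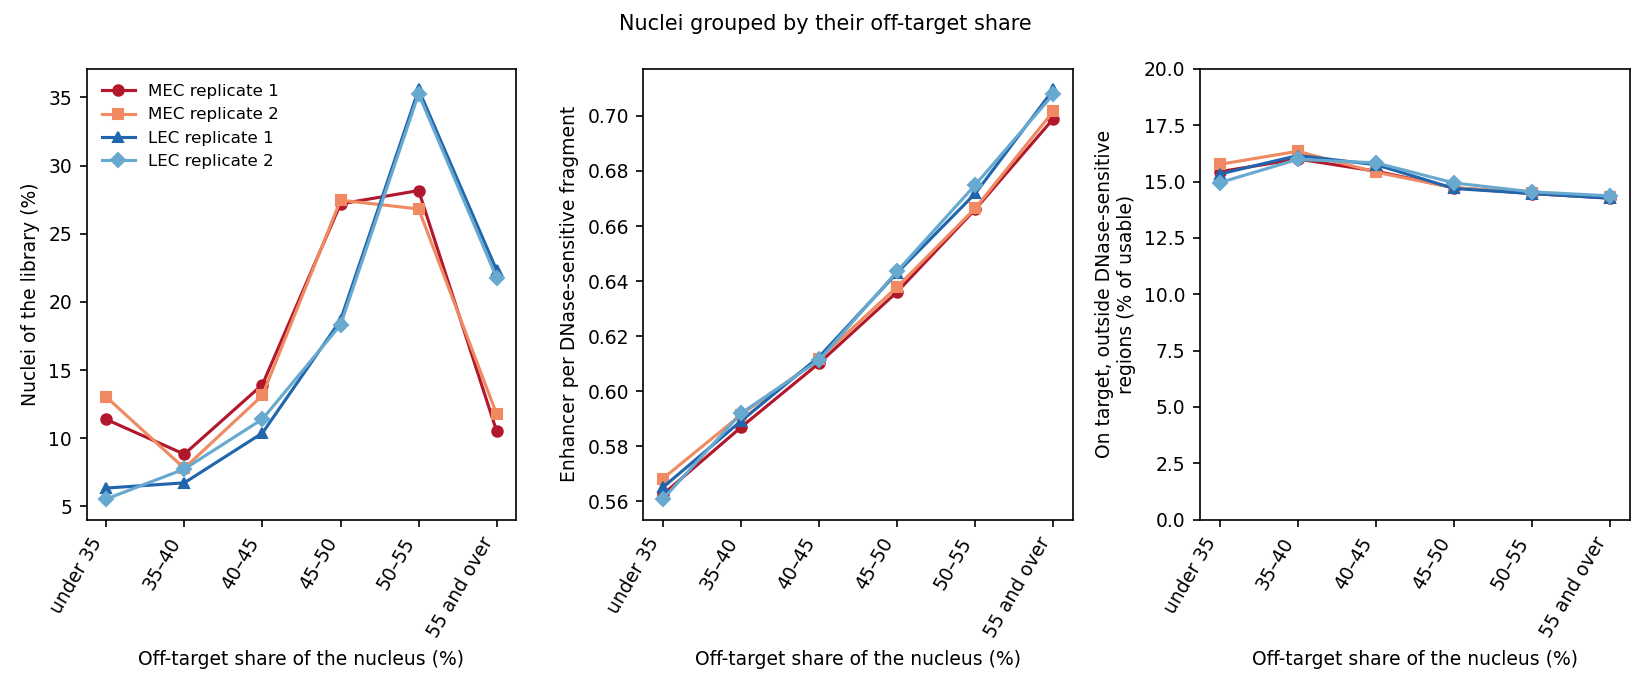
Percent of a library's nuclei, enhancer fragments per DNase-sensitive fragment, and on-target fragments outside DNase-sensitive regions as percent of usable fragments (y axes, the third starting at 0) for nuclei in 6 classes of off-target share (x axis, percent), with 1 line per library. LEC has more nuclei from 50% up, the ratio climbs alike in all 4 libraries from between 0.561 and 0.568 to between 0.699 and 0.710, and the right panel is nearly level.

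The 13, 11, 19 and 23 nuclei of 5000 to 7500 fragments had ratios of 0.568, 0.560, 0.569 and 0.568 and off-target shares of 39.6%, 42.1%, 43.7% and 43.8% (MEC replicates 1 and 2, then LEC replicates 1 and 2). The 13, 16, 23 and 30 called barcodes of 2500 to 5000 fragments, left out here, had ratios of 0.556, 0.541, 0.564 and 0.529 and off-target shares of 40.1%, 36.3%, 42.9% and 41.2%. In all, 135 called barcodes lay below the limit.

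Barcodes with few reads gave a background measured in the same way. Uncalled barcodes of 50 to under 1000 read pairs numbered between 52508 and 58022 per library. Their enhancer to DNase ratio was 0.714 and 0.707 in MEC replicates 1 and 2, against 0.751 and 0.769 in LEC, above the pooled nuclei of each library. Their off-target share was 54.5% and 51.9% in MEC and 56.1% and 58.1% in LEC. The regions thus stood in the same order in these barcodes as in nuclei, with no overlap. The part of this background in the values of nuclei was not tested.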

How the data were processed

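Single-cell ATAC libraries of MEC (2) and LEC (2) were grouped by their titles. Per the file headers, the authors' deposited tables hold raw counts of read pairs and of usable fragments per region class for each barcode, and a column of unit other with the authors' 0 or 1 call of a cell. The submitters' processing notes name mm10 and GRCm38. The aligner, cell caller, region annotations and doublet treatment are, for these tables, not given in the sources used here. No doublet caller was run, and the row without a barcode was left out.

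Counts were summed over called barcodes with at least 5000 usable fragments, so each library gave 1 value per quantity. Regions were compared with exact permutation tests over libraries, and depth contrasts with exact sign-flip tests (Python 3.11.15, numpy 2.4.6, pandas 2.3.3, scipy 1.17.1), with Benjamini-Hochberg adjustment. Scripts were tested on simulated data. Every region class and depth class is named, as no genes are listed. The quantities, classes and lists were chosen with earlier results of these data known. Alternatives were other nucleus filters, medians, means, weightings, leaving out single libraries, and a replicate block.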

Additional observations from a re-analysis of the deposited data

Results flagged for a closer look

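Barcodes of at least 5000 usable fragments that were not called as cells by the authors carried between 1376033 and 1766372 enhancer fragments per library that the comparisons above leave out. They numbered 149 and 140 in MEC replicates 1 and 2, against 240 and 190 in LEC. Their enhancer to DNase ratio was 0.745 and 0.743 in MEC and 0.758 and 0.762 in LEC, above that of every depth class of nuclei in the same library. Their off-target share was 66.3% and 64.5% in MEC and 65.3% and 65.1% in LEC, above the highest single nucleus of the same library. Unlike in nuclei, the off-target share of these barcodes overlapped between the regions. On-target fragments outside DNase-sensitive regions were 12.9% and 13.2% of usable fragments in MEC and 13.4% and 13.5% in LEC. Their DNase-sensitive share, 20.8% and 22.3% in MEC and 21.3% and 21.4% in LEC, was also below the pooled nuclei. The cause was not tested.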

How the results depend on the processing

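Of 242 recomputed differences and contrasts, 240 kept their direction. The 2 that turned were the off-target difference in nuclei of 5000 to 10000 fragments without MEC replicate 2 (-1.85) and without LEC replicate 1 (-0.0188), against 0.317 with all libraries; leaving out each library in turn gave -1.85 to 2.49. Direction under a left-out library was fixed beforehand wherever the libraries of the regions did not overlap. It was also fixed under the replicate blocks, by number or crossed, which return the main difference by construction. The count of 240 includes both kinds. With 5000 to 50000 fragments per nucleus, a filter that removes more of the deeper MEC nuclei, the differences were -6.63 percentage points off target, -0.0325 in the ratio and 0.0857 in class overlap. With all read pairs as denominator the off-target difference was -5.93, as duplicates enter that denominator. Paired by replicate number, the replicate block gave the same mean differences (-2.78 off target, -0.0211 in the ratio) with an exact p of 0.5 in each, the smallest that 2 pairs allow. Deviations of same-numbered libraries had a correlation of -0.220 over 8 quantities, and with the numbers crossed the count of calls was 0, as it was by number. The 8 quantities share counts and are not independent, so this coefficient cannot show whether the numbers pair libraries.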

Other observations

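The share of usable fragments in peaks did not follow the enhancer and DNase-sensitive shares when nuclei of like off-target share were compared. With off-target classes weighted to 1 distribution, chosen after the data had been seen, the MEC minus LEC difference was 0.134 percentage points at enhancers (1.01 unweighted), 0.568 at DNase-sensitive regions (2.67 unweighted) and 7.83 at peaks (9.83 unweighted). In nuclei with under 35% of fragments off target, peaks took 48.1% and 48.6% in MEC and 39.5% and 41.9% in LEC. At 55% or more they took 25.02% and 25.9% in MEC and 18.7% and 19.3% in LEC. Whether 1 peak set served both regions is not stated.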
